A study of Mus musculus with 19 samples.

Results

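The oligoadenylate synthetase (OAS) family was followed in the brains of mice that model spinocerebellar ataxia type 17 (SCA17). Its 8 members (*Oas1a*, *Oas1g*, *Oas1b*, *Oas1c*, *Oas2*, *Oas3*, *Oasl1* and *Oasl2*) were taken by gene name from the 41128 genes in the count tables, and all 8 had a row. The 4 further *Oas1* paralogs *Oas1d*, *Oas1e*, *Oas1f* and *Oas1h* held at most 2 counts in any library and were not tested. The 19 RNA sequencing libraries came from C57BL/6 mice aged 3 months that received no treatment. The SCA17 knock-in (KI) mice express full-length mutant TBP, the TATA box-binding protein, with an expanded polyglutamine tract from the endogenous gene, and the allele is germline, made by crossing floxed animals to EIIa-Cre mice, so that all cells carry it. The controls were age-matched wild-type (WT) mice. The cerebellum (CB) gave 3 WT and 4 KI libraries, and the striatum (STR) and the prefrontal cortex (PFC) gave 3 of each genotype. Each library is bulk tissue, in which more cells of a type and more RNA per cell cannot be told apart.

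OAS proteins sense double-stranded RNA. On binding it, the active enzymes join ATP into short 2′-5′-linked oligoadenylates (2-5A), second messengers of the antiviral response. Their genes are classical interferon-stimulated genes: type I interferon acts through the JAK kinases and a STAT complex that contains IRF9, and this complex binds the interferon-stimulated response element (ISRE) in their promoters. In resting brain they are expressed at low levels, and neurons, microglia and other glia can all raise them when interferon signalling is active.

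The members lie in 2 clusters on mouse chromosome 5 (GRCm38, GENCODE M21). *Oasl2* (chr5:114896936-114912234) and *Oasl1* (chr5:114923240-114937915) are neighbours on the plus strand within 41.0 kb. The other 6 lie in a cluster of 10 *Oas* genes over 191.3 kb. From low to high coordinates on the minus strand these are *Oas2* (chr5:120730333-120749853), *Oas3* (chr5:120753098-120777661), *Oas1c* (chr5:120800194-120812514), *Oas1g* (chr5:120876142-120887613) and *Oas1a* (chr5:120896256-120907521), and *Oas1b* (chr5:120812635-120824163) is on the plus strand. *Oas1c* and *Oas1b* are divergent and their annotated starts are 121 bases apart. GENCODE lists *Oas1b* as a polymorphic pseudogene and the other 7 as protein coding.

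Sequence just upstream of the start was read for the members with a RefSeq promoter entry (GRCm38.p6, 6 of 8). The letters searched were an ISRE core, GAAA and again GAAA with any 2 bases between, on both strands, and 4 of the 6 held it in the 300 bases around the start, against 3.44% of 32851 mouse promoters. These stretches are printed because interferon-driven transcription of the family is known to act through such elements. Capitals mark the matches, overlapping ones joined, and all 4 are given 5′ to 3′ in the direction of the gene on the minus strand.
*Oas3*, chr5:120777700-120777759: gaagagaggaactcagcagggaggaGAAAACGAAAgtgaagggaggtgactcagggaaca
*Oas1c*, chr5:120812588-120812634: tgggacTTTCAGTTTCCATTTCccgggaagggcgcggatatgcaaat
*Oas1g*, chr5:120887614-120887650: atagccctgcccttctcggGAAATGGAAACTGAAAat
*Oas1a*, chr5:120907526-120907564: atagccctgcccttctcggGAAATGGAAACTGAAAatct
The *Oas1a* and *Oas1g* stretches carry the same pair of overlapping matches, and the aligned upstream sequences of these genes were 82.8% identical, while the other pairs of members ranged from 35.8% to 43.2%. In *Oas1c* the same overlapping letters lie on the opposite strand, in the direction of the divergent *Oas1b*. The printed *Oas1c* stretch begins next to the annotated start of *Oas1b* (chr5:120812635), which had no promoter entry of its own. The interferon-gamma-type core TTCNNNGAA was present in 1 of the 6 members, *Oas1a*, and in 8.3% of all promoters. A match describes letters only, and the windows of *Oasl1* and *Oasl2* held neither core.

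Library totals ranged from 10639110 to 17431284 counts (median 15082703), so that 1 count was worth between 0.0554 and 0.0968 CPM, the unit of counts scaled by effective library size used here. Regional identity followed the labels. In CB 6 cerebellar markers summed to between 5218 and 7773 CPM, and to at most 563 elsewhere. In STR 6 striatal markers summed to between 3366 and 7835 CPM, and to at most 713 elsewhere. In PFC 6 cortical markers summed to between 1228 and 1977 CPM, and to at most 581 elsewhere. The genotypes did not overlap in 2 of these sums. Cerebellar markers in CB held 7084 to 7773 CPM in WT and 5218 to 6336 in KI. Striatal markers in STR held 6711 to 7835 CPM in WT and 3366 to 4845 in KI. Such sums are weighted to their most abundant genes, and how many of all genes separate in this direction was not counted. By edgeR 1 of the 6 cerebellar markers was called lower in CB (median log2 fold change -0.43) and 0 of the 6 striatal markers in STR (median -0.69). Of all tested genes, 0.315% were called lower in CB and 0.19% in STR. Total *Tbp* RNA, which both alleles feed, was not called different between genotypes (log2 fold change -0.14 in CB, -0.12 in STR and -0.15 in PFC), and counts per gene do not separate the mutant allele. Libraries of STR and PFC that share a genotype and a replicate number deviated together from their group means in 6 of 6 pairs (r over tested genes 0.233 to 0.368). Those with different numbers had r between -0.253 and -0.0758. Deviations from a group mean cancel within the group, so these negative values follow in part from the positive ones. The labels do not say whether libraries of the same number came from the same mouse. The fit has no term for this, so calls in STR and PFC are not independent evidence of each other.

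OAS transcripts were more abundant in SCA17 KI brain in all 3 regions. Summed over the 8 members, CB held 7.64 ± 2.00 CPM in WT (SD, n = 3) and 47.7 ± 10.4 CPM in KI (SD, n = 4). The sums were 8.74 ± 1.99 and 59.5 ± 13.3 CPM in STR and 8.79 ± 2.07 and 41.5 ± 13.3 CPM in PFC (SD, n = 3 each). In every region the lowest KI library lay above the highest WT library. *Oasl2* made up between 56.6% and 71.7% of these sums, so they largely follow that gene. In the quasi-likelihood test of edgeR, adjusted by Benjamini-Hochberg over 16841 genes, 6 of the 8 members were called higher in KI in CB, 4 in STR and 4 in PFC, and 0 were called lower. *Oas3* was too low to be tested. With 1 library of the region left out the number called was 3 to 6 in CB (3 without WT replicate 2 or 3), 3 to 4 in STR and 1 to 3 in PFC (1 without WT replicate 1 or 2), and with PFC fitted alone it was 0. Of all tested genes, 0.517% were called higher in CB, 0.392% in STR and 0.0891% in PFC, and 0.315%, 0.19% and 0.0178% were called lower. *Oas1a*, *Oas1g* and *Oasl2* were called in all 3 regions, as were 0.0772% of tested genes (13 genes). The filter kept 7 members, of which *Oas1g* and *Oasl1* passed only through the KI libraries: 5 of the 8 reached its level of 0.663 CPM in at least 3 WT libraries. Across the members tested, the median log2 fold change was 2.35 in CB, 2.68 in STR and 2.22 in PFC, against 0.01, -0.01 and 0.00 over all tested genes. The STR and PFC medians are the values of *Oasl1*, which was not called there, so these medians depend on the filter. Among the 5 members that reached the level in WT, the middle value was 2.11 in CB and 2.23 in STR (*Oas1b*) and 2.07 in PFC (*Oas1a*).

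**Figure D1:**
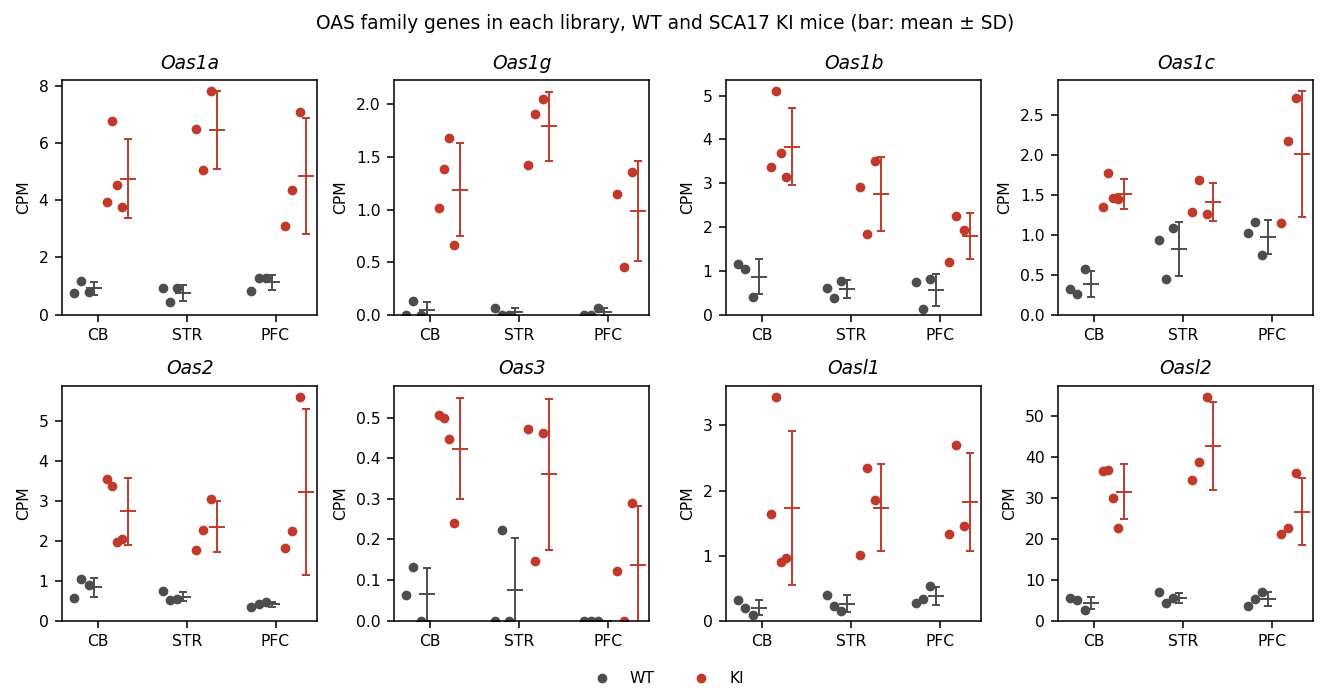
Level of each OAS gene in CPM (vertical axis, from 0, a scale of its own in each panel) in every WT (grey) and KI (red) library of CB, STR and PFC; points are libraries, bars are means ± SD. KI points lie above all WT points of their region for every gene in CB, for all but *Oas3* in STR and for all but *Oas3* and *Oas1c* in PFC.

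*Oasl2*, an OAS-like protein with a ubiquitin-like tail that retains 2-5A synthetase activity in the mouse, was the most abundant member. CB libraries held 85, 75 and 32 counts in WT and 650, 666, 534 and 376 in KI. STR libraries held 103, 59 and 72 counts in WT and 510, 530 and 828 in KI. PFC libraries held 52, 79 and 104 counts in WT and 350, 303 and 372 in KI. No KI library came near a WT library, and the WT means lay close together in the 3 regions, at 4.32 ± 1.53, 5.61 ± 1.25 and 5.31 ± 1.72 CPM (SD, n = 3). The KI means were 31.5 ± 6.70 (n = 4), 42.7 ± 10.7 and 26.6 ± 8.14 CPM (n = 3). The log2 fold change was 2.85 ± 0.31 in CB (SE, edgeR adjusted p = 0.000126), 2.92 ± 0.31 in STR (adjusted p = 0.000182) and 2.32 ± 0.31 in PFC (adjusted p = 0.00305), that is 7.22-, 7.59- and 4.99-fold. These calls held when any one library was left out, and the PFC call was lost when PFC was fitted alone (adjusted p = 0.201).

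*Oasl1*, a family member without synthetase activity that is known to restrain translation of *Irf7* mRNA, was far scarcer. WT libraries held 5, 3 and 1 counts in CB, 6, 3 and 2 in STR, and 4, 5 and 8 in PFC. KI libraries held 29, 62, 16 and 16 counts in CB, 15, 32 and 28 in STR, and 22, 36 and 15 in PFC. The genotypes did not overlap in any region, and the KI library of CB with 62 counts stood above the other 3. The log2 fold change was 3.03 ± 0.60 in CB (SE, edgeR adjusted p = 0.0198). It was 2.68 ± 0.61 in STR (adjusted p = 0.0592) and 2.22 ± 0.58 in PFC (adjusted p = 0.379), which did not pass the threshold. DESeq2 called it in STR (adjusted p = 0.0150), and the CB call was lost without WT replicate 2 or 3 (adjusted p = 0.117 and 0.128).

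Among the synthetases proper, *Oas1a* encodes the main active small enzyme. Its CB counts were 12, 18 and 10 in WT and 70, 122, 81 and 62 in KI. Those of STR were 14, 6 and 12 in WT and 96, 69 and 118 in KI. In PFC they were 12, 19 and 19 in WT and 51, 58 and 73 in KI. Every KI library lay well above the WT libraries of its region. The mean level rose from 0.920 ± 0.226 to 4.75 ± 1.39 CPM in CB, from 0.769 ± 0.280 to 6.45 ± 1.37 CPM in STR, and from 1.13 ± 0.27 to 4.83 ± 2.03 CPM in PFC (SD). The log2 fold changes were 2.35 ± 0.35 (SE, edgeR adjusted p = 0.00156), 3.05 ± 0.37 (adjusted p = 0.000452) and 2.07 ± 0.36 (adjusted p = 0.0246). The PFC call was lost without any one of 5 of the 6 PFC libraries, with adjusted p up to 0.137, while the log2 fold change stayed between 1.71 and 2.32.

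*Oas1g*, a close copy of *Oas1a* that also makes 2-5A, was next to absent in WT brain. Only 2 counts were found in the 3 WT libraries of CB (0, 2 and 0), 1 in STR (1, 0 and 0) and 1 in PFC (0, 0 and 1). KI libraries held 18, 25, 30 and 11 counts in CB, 21, 26 and 31 in STR, and 19, 6 and 14 in PFC. All KI libraries were thus above all WT libraries. Against so few WT counts the size of the rise is poorly bounded: the ratio of summed counts per library size was 25.8 in CB (exact 95% counting interval 6.93 to 217), 74.1 in STR (12.9 to 2963) and 42.9 in PFC (7.26 to 1736). These intervals cover counting error alone. The adjusted p of the edgeR test was 0.00673 in CB, 0.00310 in STR and 0.0402 in PFC. The PFC call was lost without any one of 5 of the 6 PFC libraries (adjusted p up to 0.160), and the CB call without WT replicate 3 (adjusted p = 0.0554). *Oas1g* and *Oas1a* share sequence: 57.6% of the 50-base windows of *Oas1a* transcripts occur in *Oas1g* and 45.7% of those of *Oas1g* occur in other genes, nearly all in *Oas1a*. How reads that match both were counted is not given in the sources used here, so the split between these genes is uncertain.

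*Oas2*, which carries a pair of OAS domains, had 9, 16 and 11 counts in WT and 63, 61, 35 and 34 in KI in CB. STR held 11, 7 and 7 counts in WT and 26, 31 and 46 in KI. PFC held 5, 6 and 7 counts in WT and 30, 30 and 58 in KI. The groups did not overlap in any region, and KI replicate 3 of PFC had nearly as many counts as the other 2 together. The log2 fold change was 2.94 ± 0.46 in PFC (SE, edgeR adjusted p = 0.0151). The values in CB, 1.70 ± 0.40 (adjusted p = 0.0561), and in STR, 1.96 ± 0.44 (adjusted p = 0.0539), missed the threshold. DESeq2 called both (adjusted p = 0.0160 and 0.0155), and the PFC call was lost without PFC WT replicate 1 or 2 (adjusted p = 0.0929 and 0.121). Among the 7 tested members *Oas2* had the highest fold in PFC after *Oas1g* (*Oas3*, with 0 WT counts there, cannot be ranked), but the difference between its effects in CB and PFC (-1.24 on the log2 scale, adjusted p = 0.832) was not called.

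*Oas3*, the synthetase with a run of OAS domains that responds best to long double-stranded RNA, was close to the detection limit. WT libraries held 1, 2 and 0 counts in CB, 0, 3 and 0 in STR, and 0 in all 3 of PFC. KI libraries held 9, 9, 8 and 4 counts in CB, 7, 2 and 7 in STR, and 2, 0 and 3 in PFC. Only in CB did every KI library exceed every WT library. The ratio of summed counts was 6.15 in CB (exact 95% counting interval 1.91 to 31.5) and 5.06 in STR (1.45 to 27.1). In PFC the 5 KI counts against 0 gave an interval that began at 1.01, and 1 KI library held 0 counts. Set against a floor of 3 counts over the WT group, the KI level was at least 1.83-fold higher, a value that leaves the counting error of the KI counts aside. Without the filter on low counts, edgeR gave adjusted p values of 0.565, 0.895 and 0.923 in CB, STR and PFC, so no difference was established at this depth, and in that fit 0.322%, 0.223% and 0.0673% of 28226 genes were called higher.

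*Oas1b* is the flavivirus resistance gene, and standard laboratory strains such as C57BL/6 carry a premature stop codon in it. CB held 18, 16 and 5 counts in WT and 60, 92, 66 and 52 in KI. In STR there were 9, 5 and 10 counts in WT and 43, 25 and 53 in KI, and in PFC 11, 2 and 12 in WT and 20, 30 and 20 in KI. The genotypes separated in all regions, with the smallest gap in PFC. The log2 fold change was 2.11 ± 0.44 in CB (SE, edgeR adjusted p = 0.0278) and 2.23 ± 0.49 in STR (adjusted p = 0.0472). In PFC it was 1.64 ± 0.49 (adjusted p = 0.512). The calls in CB and STR were each lost in 5 of the fits that left out 1 library of the region, with adjusted p up to 0.177 and 0.275.

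*Oas1c*, which lacks synthetase activity, was the member whose values differed least between genotypes outside the cerebellum. CB held 5, 4 and 7 counts in WT and 24, 32, 26 and 24 in KI. STR held 14, 6 and 14 counts in WT and 19, 23 and 19 in KI. PFC held 15, 17 and 11 counts in WT and 19, 29 and 28 in KI, and in CPM the lowest KI library (1.151) fell just under the highest WT library (1.153). The log2 fold change was 1.98 ± 0.39 in CB (SE, edgeR adjusted p = 0.0186), against 0.77 ± 0.38 in STR (adjusted p = 0.628) and 1.02 ± 0.37 in PFC (adjusted p = 0.680). The CB call was lost without CB KI replicate 2, WT replicate 1 or WT replicate 2 (adjusted p = 0.0517, 0.0870 and 0.143). The difference between the CB and STR effects was 1.21 ± 0.55 (unadjusted p = 0.0404, adjusted p = 0.705) and was not called. Over 227 exonic bases *Oas1c* overlaps *Gm43069* on the opposite strand, and 15.1% of its 50-base windows occur in other genes, *Gm43069*, *Oas1e* and *Oas1d*. How reads from these stretches were counted is not given in the sources used here, so they cannot be assigned with certainty.

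**Figure D2:**
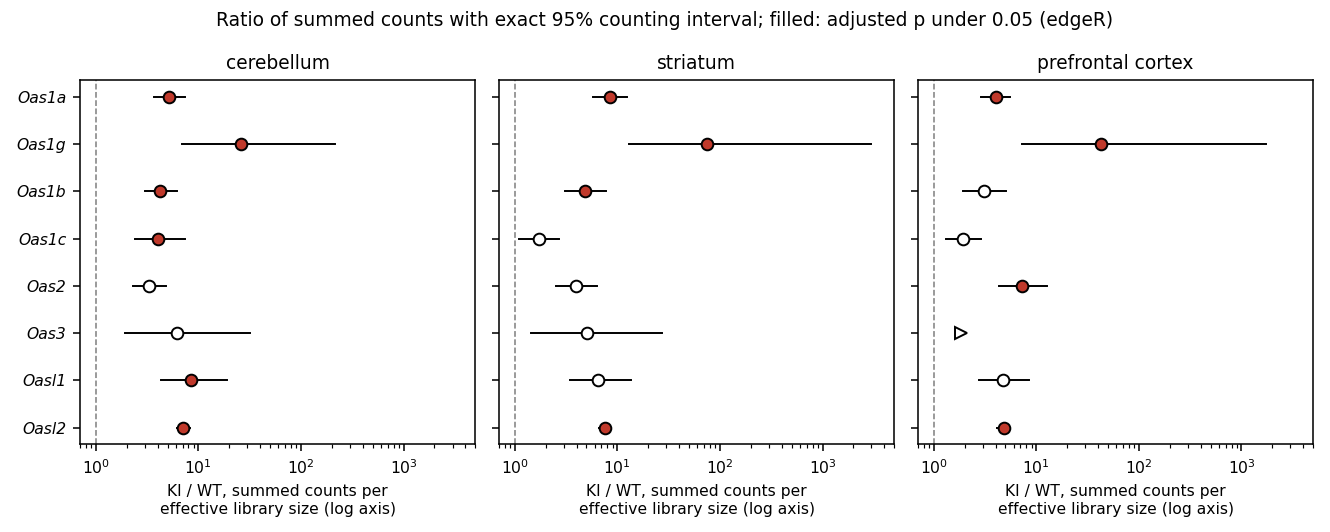
KI over WT ratio of summed counts per effective library size (horizontal log axis, 1 marked by a dashed line) for each OAS gene in the 3 regions, with exact 95% counting intervals as lines; red points passed the edgeR test at an adjusted p of 0.05, white points did not or were not tested, and the triangle is *Oas3* in PFC, where WT held 0 counts, set against a floor of 3 counts. All points lie above 1, and *Oas1g*, with 2, 1 and 1 WT counts, has the widest intervals, up to 2963.

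The genotypes separated fully, every KI library above every WT library, for 8 of 8 members in CB, 7 in STR and 6 in PFC. Among all tested genes the share with this separation was 5.82% in CB, 5.65% in STR and 4.38% in PFC, and 0.445% separated in all 3 regions. With *Oas3* among them, the matching shares are those of the 28226 genes with any count, 3.85%, 4.12% and 3.28%, with 0.273% in all 3 regions. For a single member, the exact permutation test (two-sided) cannot give less than 0.0286 with 4 against 3 libraries, the value of all 8 members in CB, or 0.1 with 3 against 3, the value of each separated member in STR and PFC.

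No member's KI effect was shown to differ between regions. Of the 7 members tested, 0 were called in any of the 3 contrasts between regions by edgeR (differences between -1.34 and 1.21 on the log2 scale), and 1 value in the 21 had an unadjusted p under 0.05, *Oas1c* between CB and STR. DESeq2 also called 0. Over all genes 0.0119% (CB against STR), 0.0178% (CB against PFC) and 0% (STR against PFC) were called. The most precise estimates were those of *Oasl2*, whose effect in CB exceeded that in PFC by 0.53 ± 0.42 (SE, adjusted p = 0.943) and fell short of that in STR by a value of -0.07 ± 0.42 (adjusted p = 0.998). Differences of the size of these SEs could not be resolved.

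In WT mice 1 member was called different between regions. *Oas1c* was lower in CB (0.383 ± 0.161 CPM, SD, n = 3) than in PFC (0.974 ± 0.211 CPM; log2 difference -1.35 ± 0.42, SE, edgeR adjusted p = 0.0127) and STR (0.821 ± 0.333 CPM; -1.11 ± 0.43, adjusted p = 0.0365). The call against STR was lost with DESeq2 (adjusted p = 0.0623), with no filter (adjusted p = 0.0791), and without CB WT replicate 1 or 2 or STR WT replicate 1 or 3 (adjusted p between 0.0963 and 0.133). The call against PFC was lost without CB WT replicate 2 (adjusted p = 0.0612). The other 6 tested members were not called between any regions, where 56.5% (CB against STR), 52% (CB against PFC) and 30.5% (STR against PFC) of all tested genes were. Lower in CB were 28.7% of all tested genes against STR and 26.9% against PFC. With levels near 1 CPM only large differences could pass.

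Levels of different members can be compared only per length, in CPM per kb of annotated exon. On this scale *Oasl2* came first and *Oas1a* second in all 6 groups. In WT CB, *Oasl2* (0.678 ± 0.239), *Oas1a* (0.488 ± 0.120) and *Oas1b* (0.437 ± 0.204) overlapped in their libraries, and so did each lower pair of neighbours down to *Oas3* (0.00921 ± 0.00927). *Oasl2* was clear of *Oas1a* in STR of both genotypes, at 0.880 ± 0.196 against 0.408 ± 0.149 in WT and 6.70 ± 1.67 against 3.42 ± 0.73 in KI. In KI CB, *Oasl2* (4.95 ± 1.05), *Oas1a* (2.52 ± 0.73) and *Oas1b* (1.92 ± 0.44) each overlapped the next and stood apart from the rest. *Oasl1*, *Oas1c*, *Oas2* and *Oas1g* followed between 0.507 and 0.665 without separation, and *Oas3* was last at 0.06 ± 0.0176. *Oas1g* stood at 0.00951 to 0.0187 in WT and at 0.421 to 0.766 in KI, which brought it from the level of *Oas3* to that of *Oas2* and *Oasl1*. These values depend on the exon lengths of the annotation and on how reads shared by *Oas1a* and *Oas1g* were split.

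**Figure D3:**
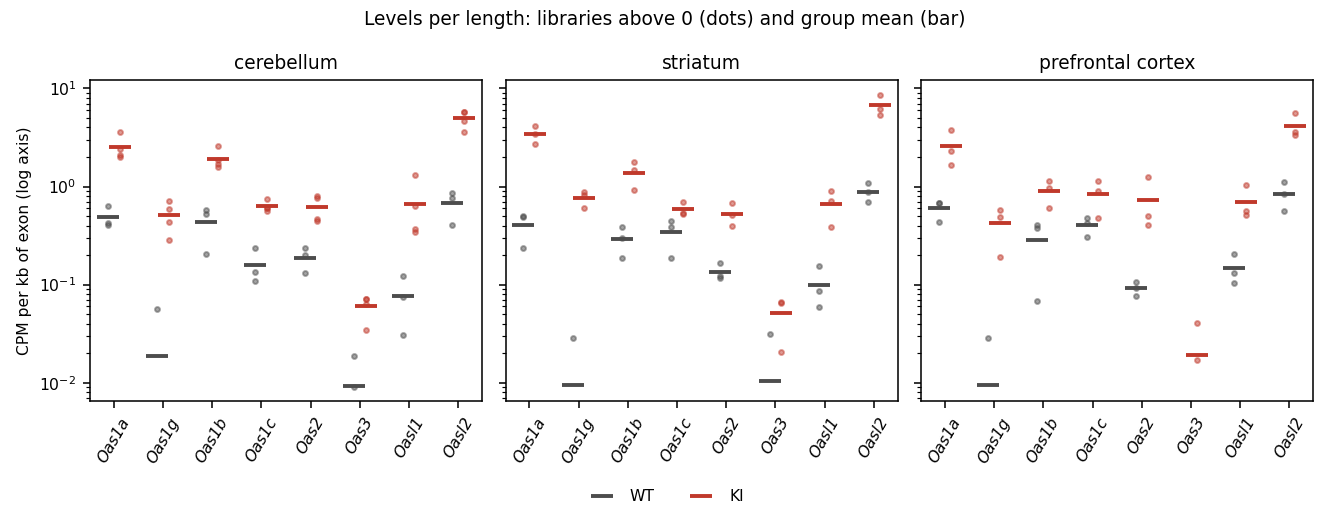
Level of each OAS gene in CPM per kb of exon (vertical log axis) in WT (grey) and KI (red) tissue of the 3 regions; dots are libraries above 0, bars are group means, libraries at 0 enter the mean but cannot be drawn, and *Oas3* in WT PFC was 0 in all libraries. *Oasl2* and *Oas1a* have the highest means in every group, and *Oas1g* moves from about the level of *Oas3* in WT to that of *Oas2* and *Oasl1* in KI.

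Genes that handle 2-5A once it is made did not pass the test. Of a list of 3, *Pde12* and *Akap7*, which encode 2-5A-degrading phosphodiesterases, and *Abce1*, a ribosome recycling factor linked to the 2-5A pathway, 0 were called in any region by edgeR. The log2 fold changes of *Abce1* were between -0.05 and 0.02, those of *Pde12* between -0.09 and 0.11 and those of *Akap7* between -0.17 and 0.03. The medians of the 3 genes were 0.02 in CB, 0.03 in STR and -0.05 in PFC.

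Upstream in the pathway, interferon transcripts themselves were at or near the floor. Of 12 ligand genes 0 could be tested and 11 had no count in any library of CB, STR or PFC, with at most 3 counts of the remaining one, *Ifnk*. Of 10 genes for receptors, kinases and transducers, 2 were called higher in CB, 3 in STR and 2 in PFC, and 0 lower, and the median log2 fold change was between 0.01 and 0.09. The genes called were *Irf9* (2.33, 2.03 and 1.47 in CB, STR and PFC), *Usp18* (3.67, 3.49 and 2.33), an ISG15 protease that restrains receptor signalling, and, in STR, *Stat2* (0.52). The receptor genes *Ifnar1*, *Ifnar2*, *Ifngr1* and *Ifngr2* and the kinase genes *Jak1*, *Jak2* and *Tyk2* were not called in any region. Among 6 interferon regulatory factors, *Irf7*, a driver of late interferon responses, was called in all 3 regions (3.16, 3.10 and 2.25), and *Irf8*, a myeloid factor, in CB (1.26, adjusted p = 0.00395).

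Among 8 other sensors of double-stranded RNA and nucleic acid, 3 were called higher in CB, 4 in STR and 0 in PFC. *Ddx58*, encoding RIG-I, had log2 fold changes of 1.50, 1.80 and 1.00 (edgeR adjusted p = 0.000644, 0.000388 and 0.118), and *Ifih1*, encoding MDA5, of 1.42, 1.46 and 0.71 (adjusted p = 0.00648, 0.0127 and 0.661). *Eif2ak2*, encoding the kinase PKR, had 1.48, 1.26 and 0.74 (adjusted p = 0.000333, 0.00376 and 0.399). The adaptor *Mavs* and the receptor *Tlr3* were not called in any region. The interferon-induced IFIT and IFITM genes were called for 5 of 8 in CB, 5 in STR and 1 in PFC, with *Ifit3* at 2.21, 2.86 and 1.87 and *Ifit1* at 3.17, 3.60 and 1.73 (the last not called, adjusted p = 0.123). Of 5 guanylate-binding protein genes in the table, 3, 3 and 1 were called, led by *Gbp3* (2.21, 2.13 and 1.64). On median, the fold changes of the tested OAS members were 2.35, 2.68 and 2.22. Those of the IFIT and IFITM list were 1.50, 1.71 and 0.71, and those of the GBP list 1.11, 1.30 and 0.91. These differences were not tested and do not rank the families. The medians depend on which genes a list holds, and *Oas1g* and *Oasl1* passed the filter only through the KI libraries. *Ifit1* lay above the OAS median in CB and STR and below it in PFC.

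**Figure D4:**
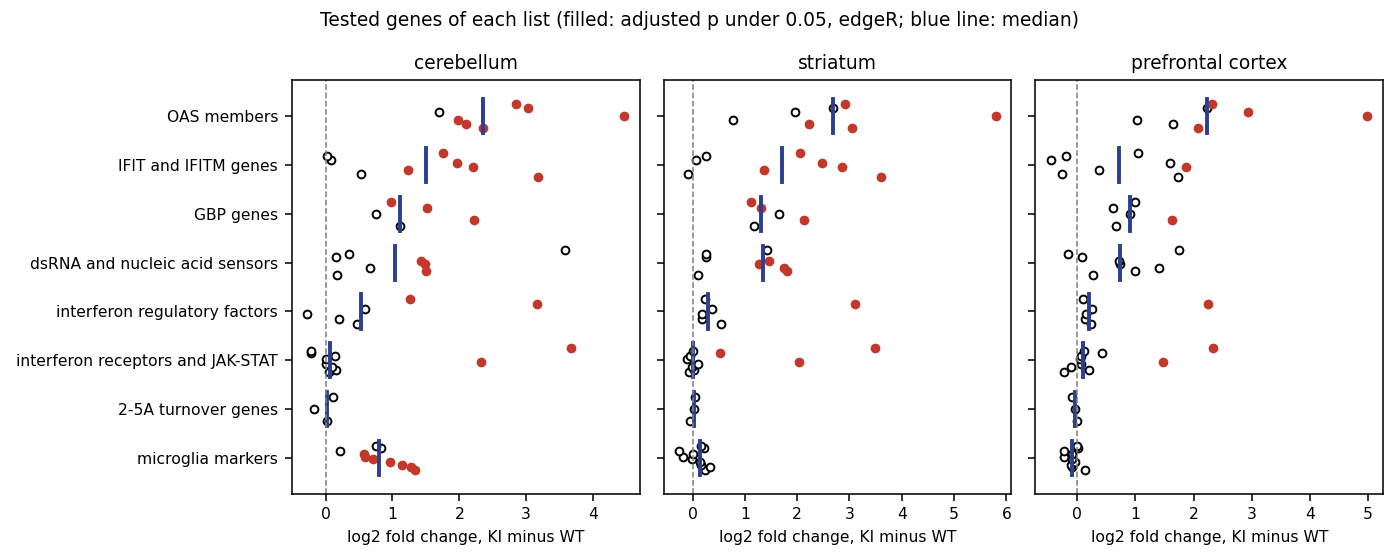
Log2 fold change of KI over WT (horizontal axis) of each tested gene of 8 gene lists in the 3 regions; filled points had an adjusted p under 0.05 in edgeR, open points did not, and blue lines mark the median of a list. The OAS members lie to the right in all 3 regions with medians of 2.35, 2.68 and 2.22, and *Oas1g* and *Oasl1* among them passed the filter only through KI libraries. The 2-5A turnover genes lie around 0, and the microglia markers have medians of 0.79, 0.15 and -0.09.

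Microglial markers moved with the OAS genes in the cerebellum. Of 10 markers 7 were called higher in KI in CB, with a summed level of 158 to 163 CPM in WT and 235 to 319 CPM in KI, and 0 were called in STR (720 to 836 and 737 to 845 CPM) or PFC (662 to 733 and 604 to 719 CPM). *C1qa*, a complement subunit made by microglia, had a log2 fold change of 1.28 in CB (edgeR adjusted p = 0.000139), and *P2ry12*, a homeostatic microglial receptor, had 0.22 (adjusted p = 0.493). *Oas1a*, *Oas1g* and *Oasl2* were called higher in all 3 regions, and the summed markers of the genotypes overlapped in STR and PFC. The part of microglia in the OAS values was not tested in any region. Of the astrocyte (6), oligodendrocyte (6) and endothelial (5) markers 0 were called in any region. Of 7 blood leukocyte markers 2 could be tested and 0 were called. Their sums ranged from 0.721 to 1.46 CPM in WT and from 0.728 to 6.87 CPM in KI in CB, from 125 to 154 and 78.1 to 113 CPM in STR, and from 3.26 to 7.46 and 1.65 to 14.5 CPM in PFC. Most of the STR sum was *Cd4*, with 5767 counts in WT and 4077 in KI, and *Cd4* in PFC had 86 and 286 counts (log2 fold change 1.82, edgeR adjusted p = 0.555). *Ly6c2*, a monocyte marker, held 1 count in WT and 97 in KI in CB (edgeR adjusted p = 0.451), 86 and 4 in STR, and 93 and 2 in PFC. These counts are sums over the libraries of a group and can rest on a single library, and no difference was called. The T cell markers *Cd3e*, *Cd3g* and *Cd8a* held at most 7 counts in any library. The part of these cells in the OAS values was not tested.

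The genes whose levels ran most like the family were chosen by the Pearson correlation of log2 CPM, less the mean of the region, with the mean of the 7 tested members over the 19 libraries. The closest were *Usp18* (r = 0.985), *Gbp3* (0.985), *Irf7* (0.981), *Ddx58* (0.977) and *Ifit3* (0.976). Among the members themselves the correlation with this mean, which includes them, ranged from 0.840 for *Oas1c* to 0.991 for *Oasl2*. All of these values contain the difference between genotypes and come from the same libraries, so they describe a shared pattern only.

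**Figure D5:**
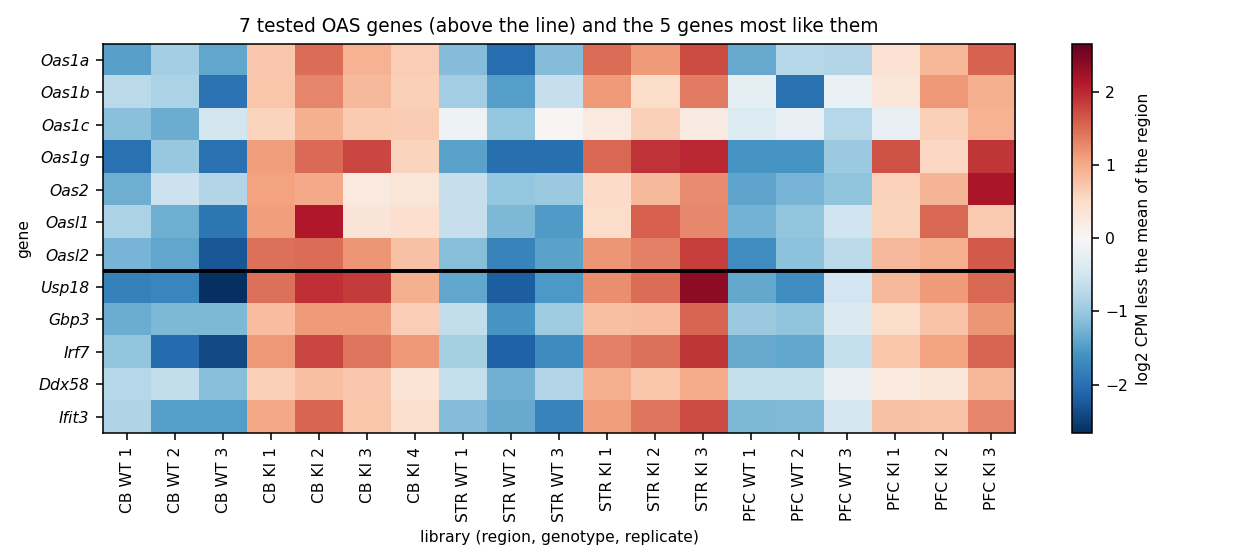
Log2 CPM less the mean of the region (colour scale, log2 units) of the 7 tested OAS genes and of the 5 genes most like their mean (rows) in the 19 libraries (columns, by region, genotype and replicate). KI columns are above and WT columns below the regional mean for nearly all genes, and *Oas1c*, the member with the lowest correlation (r = 0.840), has the palest row.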

How the data were processed

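The labels assigned 19 libraries to 6 groups of region and genotype. Libraries were made from 10 ng of RNA with SMART-Seq v4 and Nextera XT kits and sequenced on an Illumina HiSeq. The submitters' processing notes name bcl2fastq 2.17.1.14, STAR 2.5.2b, HTSeq, DESeq2 1.10.1 and GRCm38.p3, whereas the study's methods name Cufflinks and Cuffdiff. The annotation release and strand setting are not given in the sources used here. The authors deposited raw read counts per Ensembl gene, and a normalized signal table holding the same counts divided by 1 size factor per library, which served only to recover those factors (100% of values came out whole).

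Names and positions came from GENCODE M21. The test was run with edgeR 4.0.16 under R 4.3.3: filterByExpr (minimum count 10), TMM scaling, and 1 quasi-likelihood fit of all libraries without covariates (13 residual degrees of freedom, common biological coefficient of variation 0.191), which left 16841 genes. P values were adjusted by Benjamini-Hochberg over all of them, with a threshold of 0.05. The SE given with an edgeR estimate was calculated back from the test, as the absolute estimate over the square root of the quasi-likelihood F, and is approximate. Log2 CPM used a prior count of 2. Ratios of summed counts have exact conditional binomial 95% intervals. Since reads carry no molecular identifier and may be copies of 1 molecule, intervals and the floor of 3 counts cover counting error only. Library totals limit precision, 1 count being about 0.06 CPM. The fits were tested on simulated data first.

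The members and gene lists were chosen with earlier results of these data known. All members are named, with at most 6 genes of a list (highest mean CPM or smallest adjusted p) and the 5 genes most like the members; genes not called in a list were also named after their values were seen. Some genes of these lists are not reported here and were left out of the list counts. Among the 21 pairs of libraries within groups, none agreed within sampling noise. The labels number replicates but tie no library to a mouse, so p values measure the spread between these samples. KI and WT libraries of the same number deviated together (r over 0.1) in 2 of 9 pairs, so the numbers were not taken to pair them. Alternatives were DESeq2 1.42.0, other size factors, filters and prior counts, regions alone and replicate blocks. Others were a covariate for sex, the ratio of summed counts with its counting interval, and each library left out. *Xist* counts exceeded Y-linked counts in 2 of 3 WT and 2 of 4 KI libraries of CB. In STR and in PFC this held for 2 of 3 WT and 1 of 3 KI libraries, so the sexes were mixed and uneven.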

Additional observations from a re-analysis of the deposited data

How the results depend on the processing

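No KI effect of a member changed direction under any alternative. Of the values outside the fits with 1 library left out, 204 kept their side of the threshold, 12 passed it newly and 14 lost it. With 1 library left out 105 kept it and 28 lost it. The ratio of summed counts has no adjusted p and was judged by its counting interval, which leaves out the spread between libraries. Some of the 12 passed only in that sense, among them *Oas1b* and *Oas1c* in PFC. The number of members called higher ranged from 3 to 6 in CB, 3 to 4 in STR and 1 to 3 in PFC when a library of the region was left out, against 6, 4 and 4. The lowest CB number, 3, came without CB WT replicate 2 or 3, and the lowest PFC number, 1, without PFC WT replicate 1 or 2. It was 2 without PFC KI replicate 3 or PFC WT replicate 3. With each region fitted alone 0 members were called in PFC, where the fit has fewer samples. DESeq2 called 7 members in CB, 6 in STR and 4 in PFC. With the covariate for sex in edgeR, *Oas1b* was lost in STR (adjusted p = 0.0600). *Oas2* was then called in CB (adjusted p = 0.0380) and STR (adjusted p = 0.0369).

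Same-numbered KI and WT libraries deviated together in only 2 of 9 pairs, and with the replicate number as a replicate block within regions 4 members were called in CB, 3 in STR and 2 in PFC. With the replicate block across the 3 regions the numbers were 5, 3 and 3, *Oas1b* being lost in CB (adjusted p = 0.0553) and STR (0.0976) and *Oas1g* in PFC (0.0802). The block within regions also ended the WT calls of *Oas1c* in CB against STR (adjusted p = 0.283) and PFC (0.218). The interaction of CB and STR turned positive under the block within regions for *Oas1b* (0.0148) and *Oasl2* (0.116), and across regions for *Oasl2* (0.0642).

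The single WT call between CB and STR, lower *Oas1c*, became 0 with no filter, with DESeq2 and with the replicate block across regions, and ranged from 0 to 1 with a library left out. That between CB and PFC ranged from 0 to 1, and higher calls there also from 0 to 1. *Oas1c* between WT STR and PFC ranged from -0.466 to 0.0639.

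Interactions, none of them called, changed sign in some fits. *Oas1g* between CB and PFC was 0.0517 with a prior count of 2. With 1 library left out, the CB and STR differences ranged from -0.44 to 0.13 for *Oas1b*, -3.30 to 1.36 for *Oas1g*, -0.22 to 0.85 for *Oasl1* and -0.32 to 0.15 for *Oasl2*. The CB and PFC difference of *Oas1g* ranged from -2.42 to 2.16. The STR and PFC differences ranged from -0.545 to 0.0129 for *Oas1c* and from -1.08 to 2.77 for *Oas1g*. The cause of these changes was not tested. At the depth of these libraries the WT levels of *Oas3* and *Oas1g* rest on 0 to 3 counts per library.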

Other observations

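Genes that lie beside the OAS genes were also examined. Within 250 kb of a member, 44 other genes were in the table and 22 were tested, and 0 were called in any region by edgeR, with median log2 fold changes of 0.00 in CB, 0.09 in STR and 0.02 in PFC. The lowest single value was -1.49 for *Rasal1* in CB (adjusted p = 0.0961), a gene named after its value was seen.

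Within groups the members tended to vary together. After removal of the group means, 24 of the 28 pairs of members had a positive correlation over the 19 libraries, with a median r of 0.33 and a range from -0.46 to 0.68. The share of positive pairs among other genes was not computed, so variation of whole libraries cannot be told from variation of the family. The members share each library's depth, *Oas1a* and *Oas1g* share sequence, and many of the counts are low, so this is a description.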
